A study of Arabidopsis thaliana with 12 samples.

Results

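Brassinosteroids are steroid hormones that promote cell elongation and the differentiation of vascular tissue in plants, and 10 *Arabidopsis* genes of this hormone were followed across simulated shade and 2 mutants. They comprised 6 genes for enzymes of synthesis (*DWF4*, *CPD*, *BR6OX1*, *BR6OX2*, *ROT3* and *CYP90D1*), the inactivating enzymes *BAS1* and *SOB7*, and the transcription factors *BES1* and *BZR1*. The genes were chosen by their identifiers from the 32824 genes listed for each library, and all 10 were above 0 in all 12 libraries. Whole seedlings of the Col-0 wild type, of *rev-5* and of *wox4* were grown for 2 days in continuous white light (WL) and then for 8 days in WL or in far-red enriched WL (WL+FR), a simulation of shade. The labels name no hormone treatment. The 6 groups held 2 libraries each, which the methods call biological replicates. The *rev-5* allele carries an amino acid substitution in REVOLUTA, a class III HD-ZIP factor, and *wox4* is the insertion line *wox4-1* of a homeobox gene active in the cambium.

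Brassinosteroids are made from plant sterols by a chain of cytochrome P450 enzymes and are removed by further enzymes that hydroxylate, reduce or conjugate them. The receptor kinase BRI1 binds the hormone at the cell surface and, through a relay of kinases and phosphatases, frees BES1 and BZR1 from inhibition by the kinase BIN2. BES1 and BZR1 then raise genes for growth and lower genes for hormone synthesis, among them *DWF4* and *CPD*. In seedlings the hormone is known for its part in hypocotyl elongation, in shade and in darkness.

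Levels are given as TPM, the deposited FPKM rescaled to 1 total per library, and therefore compare genes per length. Differences are given on the log2(TPM + 1) scale with their standard error from limma, which shared 1 estimate of spread over all 6 groups, and a gene is said to have risen or fallen where its Benjamini-Hochberg adjusted p over 20020 tested genes was under 0.05. Relative depth, inferred from the deposited FPKM bounds, differed little between libraries, from 0.904 to 1.006 of the first. That inference takes the bounds to hold counting error only. Per library, 11663 to 11933 genes were listed at 0. *REV* lay between 6.0 and 7.82 TPM in all libraries, which does not bear on a substitution allele. *WOX4* reached at most 3.93 TPM in the other 8 libraries, whereas the 4 libraries labelled *wox4* held 111.97 to 148.96 TPM, so every direction drawn for them rests on that label. The paper treats *wox4* as a loss-of-function mutant, whereas the *WOX4* transcript was higher and not lower in these libraries. Whether WOX4 function was lost in them cannot be told from these values. Markers of green shoot tissue summed to 16649 to 19406 TPM, whereas flower markers reached at most 2.48 TPM and seed storage markers at most 0.41 TPM.

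*BZR1* (AT1G75080; TAIR10 chromosome 1, 28185504 to 28188075, plus strand) was the only one of the 10 genes with the letters of a brassinosteroid response element (BRRE), the site that BZR1 itself binds, in the 300 bases before its annotated start. Both strands were searched for the BRRE, taken as CGTGTG or CGTGCG, for the G-box CACGTG and for the wider E-box CANNTG, of which the G-box is one form. Either form of the BRRE occurred in 7.6% of 27443 promoters of the same length, and the G-box in 7.1%. The BRRE and the G-box each stood in 1 of the 10 windows, which is near these shares. The *BZR1* window held CGTGTG on the minus strand 178 to 173 and 22 to 17 bases before the start and a G-box 85 to 80 bases before it, and these sites shared no base. E-box letters stood in 9 of the 10 windows, all but that of *BR6OX2*, against 61.9% of all promoters. The absence of letters from these windows says nothing about binding, which was not measured. The *BZR1* window (1:28185204-28185503, plus strand) is shown with the BRRE and G-box letters in capitals. Those of *CPD* (AT5G05690; 5:1706949-1707248, minus strand) and *DWF4* (AT3G50660; 3:18817406-18817705, minus strand) are shown because both are known targets of BZR1 and differed in their light values.
BZR1: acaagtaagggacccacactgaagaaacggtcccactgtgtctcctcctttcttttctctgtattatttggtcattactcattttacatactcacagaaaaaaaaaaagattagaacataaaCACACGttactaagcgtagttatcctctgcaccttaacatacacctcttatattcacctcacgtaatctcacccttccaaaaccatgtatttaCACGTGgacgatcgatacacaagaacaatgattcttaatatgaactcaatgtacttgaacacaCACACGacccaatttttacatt
CPD: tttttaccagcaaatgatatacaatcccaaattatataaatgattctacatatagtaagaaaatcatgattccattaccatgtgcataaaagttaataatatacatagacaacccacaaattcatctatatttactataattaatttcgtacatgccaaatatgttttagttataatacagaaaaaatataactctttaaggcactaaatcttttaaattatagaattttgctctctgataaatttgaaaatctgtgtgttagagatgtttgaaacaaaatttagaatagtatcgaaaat
DWF4: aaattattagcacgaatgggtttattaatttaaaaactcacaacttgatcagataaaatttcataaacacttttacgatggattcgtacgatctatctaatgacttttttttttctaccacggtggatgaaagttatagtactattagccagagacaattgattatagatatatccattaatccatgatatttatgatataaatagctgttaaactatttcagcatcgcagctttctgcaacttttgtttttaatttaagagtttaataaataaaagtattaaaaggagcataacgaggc

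The 10 genes spanned a wide range of levels. The order of mean level was *BES1*, *CPD*, *BZR1*, *BAS1*, *ROT3*, *SOB7*, *BR6OX2*, *DWF4*, *CYP90D1* and *BR6OX1*. The highest, *BES1*, lay between 203 and 268 TPM and the lowest, *BR6OX1*, between 0.993 and 3.32 TPM. Over the 12 libraries the first 3 genes overlapped neither with each other nor with the rest, and neither did *DWF4* and *CYP90D1*. *BAS1* exceeded *ROT3* in 9 of 12 libraries, and the exceptions were all in WL. *BR6OX2* exceeded *DWF4* in 6 of 12, which were all the WL+FR libraries, whereas *DWF4* was the higher in every WL library.

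**Figure D1:**
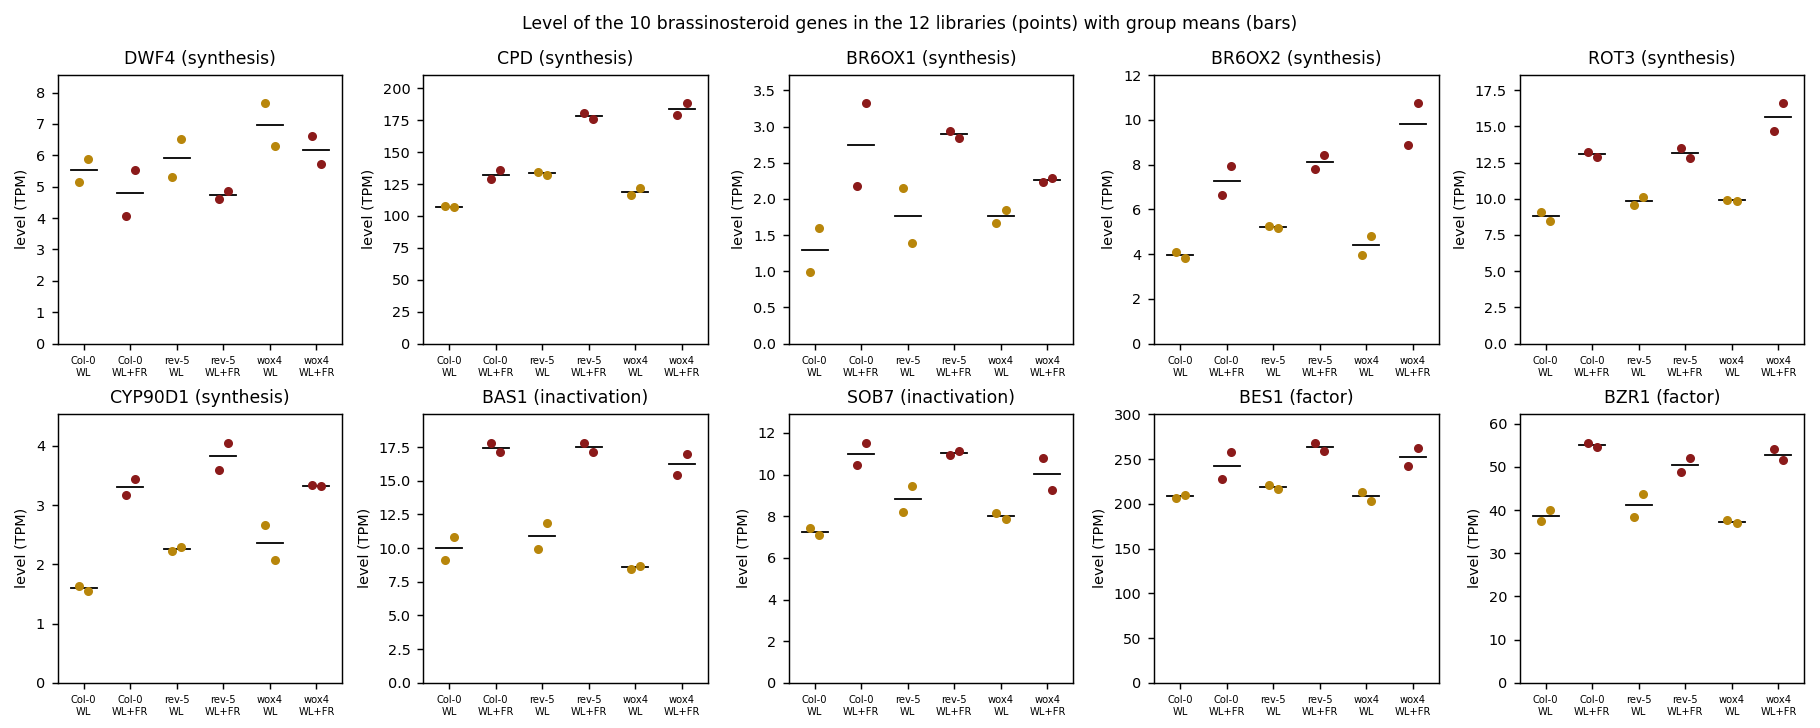
Level of each of the 10 genes (vertical axis, TPM, from 0) in the 6 combinations of genotype and light (horizontal axis), with 1 point per library, ochre for WL and dark red for WL+FR, and a bar at the mean of 2 libraries. The 6 WL+FR libraries lie above the 6 WL libraries for 7 genes, and *DWF4* overlaps between the lights, from 5.15 to 7.66 TPM in WL and from 4.08 to 6.61 TPM in WL+FR.

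Simulated shade was accompanied by higher transcript levels of 9 of the 10 genes, of synthesis, inactivation and signalling alike. Averaged over the 3 genotypes, *CPD*, *BR6OX1*, *BR6OX2*, *ROT3*, *CYP90D1*, *BAS1*, *SOB7*, *BES1* and *BZR1* rose, against 28.1% of all genes tested, and none of the 10 fell, against 7.19%. Their median difference was 0.46 on the log2 scale, beside 0.11 for all genes tested. Quantile normalization moved the median of all genes to -0.02 and the share of higher genes among all calls from 79.6% to 48.8%. On that scale 8 of the 10 genes rose, against 13.6% of all genes tested, *BR6OX1* missed the threshold with an adjusted p of 0.0615 and *DWF4* fell by 0.33 with an adjusted p of 0.0204 (limma). For 7 genes the 6 WL+FR libraries lay above the 6 WL libraries without overlap, as for 12.4% of all genes tested. When the 4 libraries labelled *wox4* were left out, 9 of the 10 genes again rose, and 8 did not overlap between 4 and 4 libraries, against 17.1% of genes.

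**Figure D2:**
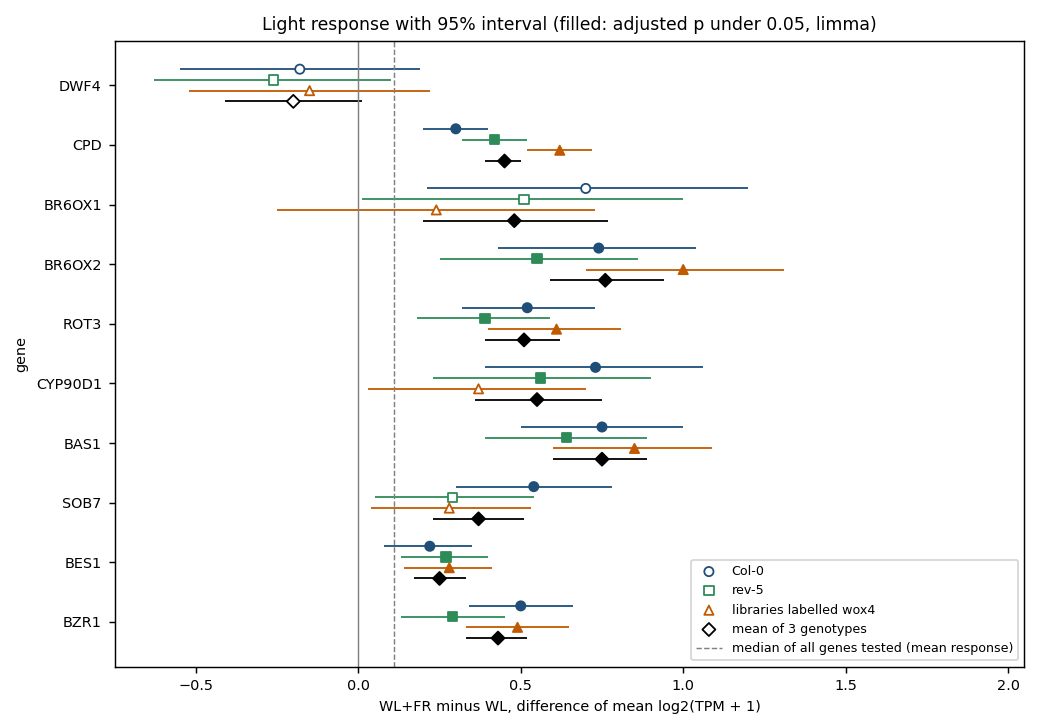
Difference between WL+FR and WL for each gene (horizontal axis, log2(TPM + 1) scale) with its 95% interval from limma, for Col-0 (circles), *rev-5* (squares), the libraries labelled *wox4* (triangles) and the mean of the 3 genotypes (diamonds), filled where the adjusted p was under 0.05. The mean response runs from -0.20 for *DWF4* to 0.76 for *BR6OX2*, and the dashed line marks the median of all genes tested, 0.11.

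*DWF4*, which encodes the P450 enzyme of an early and rate-limiting hydroxylation, was the one gene that did not rise. In WL the Col-0 libraries held 5.15 and 5.90 TPM of it, the *rev-5* libraries 5.30 and 6.51 TPM and the libraries labelled *wox4* 7.66 and 6.28 TPM. In WL+FR it was 4.08 and 5.52 TPM, 4.60 and 4.85 TPM, and 6.61 and 5.73 TPM in the same order. All group means were lower in WL+FR, but the lights overlapped in Col-0 and in the libraries labelled *wox4*. The mean difference was -0.20 ± 0.09 (SE) with a 95% interval from -0.41 to 0.01 and an adjusted p of 0.137 (limma).

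*CPD*, a P450 of the same route whose loss gives dwarfs with the look of light-grown seedlings in darkness, was the synthesis gene with the highest level and rose in every genotype. In WL the 2 Col-0 libraries stood at 107 and 107 TPM, those of *rev-5* at 135 and 132 TPM and those labelled *wox4* at 116 and 122 TPM. In WL+FR the values were 129 and 136 TPM, 181 and 176 TPM, and 179.5 and 188 TPM in the same order. The lights did not overlap within any genotype, whereas the WL level of *rev-5* lay within the range of Col-0 in WL+FR. The *CPD* difference was 0.30 ± 0.04 for Col-0, 0.42 ± 0.04 for *rev-5* and 0.62 ± 0.04 for the libraries labelled *wox4*, with adjusted p of 0.00145, 2.63e-04 and 1.65e-05 (limma).

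*BR6OX1* and *BR6OX2* encode oxidases of the last steps, of which BR6OX2 also forms brassinolide, the most active brassinosteroid. *BR6OX2* (AT3G30180) stood at 4.10 and 3.82 TPM in Col-0 in WL and at 6.65 and 7.92 TPM in WL+FR, at 5.27 and 5.15 TPM against 7.80 and 8.45 TPM in *rev-5*, and at 3.98 and 4.81 TPM against 8.89 and 10.7 TPM in the libraries labelled *wox4*. Every WL+FR library thus exceeded every WL library. The mean difference of 0.76 ± 0.08 was the largest of the 10 genes, followed by *BAS1* at 0.75, and its adjusted p was 5.77e-05 (limma). *BR6OX1* (AT5G38970) ranged from 0.993 to 2.15 TPM with a median of 1.63 TPM in WL and from 2.18 to 3.32 TPM with a median of 2.56 TPM in WL+FR. The highest WL library, of *rev-5*, lay just below the lowest WL+FR library, of Col-0, and the mean difference was 0.48 ± 0.13 with an adjusted p of 0.0149 (limma). In no single genotype did *BR6OX1* pass the threshold, with 0.70 ± 0.22 for Col-0, 0.51 ± 0.22 for *rev-5* and 0.24 ± 0.22 for the libraries labelled *wox4*.

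*ROT3* and *CYP90D1* encode closely related P450 enzymes that hydroxylate the steroid side chain and share this role. *ROT3* (AT4G36380) ranged from 8.46 to 10.13 TPM in WL, with a median of 9.72 TPM, and from 12.8 to 16.6 TPM in WL+FR, with a median of 13.4 TPM. *CYP90D1* (AT3G13730) ranged from 1.55 to 2.66 TPM in WL, with a median of 2.15 TPM, and from 3.17 to 4.05 TPM in WL+FR, with a median of 3.39 TPM. Neither gene overlapped between the lights, and both rose, *ROT3* by 0.51 ± 0.05 (adjusted p = 5.85e-05, limma) and *CYP90D1* by 0.55 ± 0.09 (adjusted p = 8.17e-04). In the libraries labelled *wox4* the *CYP90D1* difference was 0.37 ± 0.15 with an adjusted p of 0.123.

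Both inactivating enzymes rose with the synthesis genes. BAS1 and SOB7 are P450 enzymes that inactivate brassinosteroids, BAS1 by hydroxylation. *BAS1* (AT2G26710) stood at 9.11 and 10.8 TPM in Col-0 in WL and at 17.8 and 17.1 TPM in WL+FR, at 9.92 and 11.9 TPM against 17.8 and 17.2 TPM in *rev-5*, and at 8.43 and 8.71 TPM against 15.4 and 17.0 TPM in the libraries labelled *wox4*. The lowest WL+FR library lay above the highest WL library. The *BAS1* difference was 0.75 ± 0.11 for Col-0, 0.64 ± 0.11 for *rev-5* and 0.85 ± 0.11 for the libraries labelled *wox4*, with a mean of 0.75 ± 0.06 and an adjusted p of 1.67e-05 for the mean (limma). *SOB7* (AT1G17060) ranged from 7.09 to 9.46 TPM in WL and from 9.27 to 11.5 TPM in WL+FR, with medians of 8.03 and 10.9 TPM. The lights overlapped in the highest WL library, of *rev-5*, and the lowest WL+FR library, labelled *wox4*. The mean difference of *SOB7* was 0.37 ± 0.06 (adjusted p = 0.00129, limma), and among single genotypes it passed the threshold in Col-0, at 0.54 ± 0.11.

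The factors BES1 and BZR1 are close relatives that bind BRRE and E-box sites, and both of their transcripts rose. *BZR1* stood at 37.4 and 40.0 TPM in Col-0 in WL and at 55.6 and 54.6 TPM in WL+FR, at 38.4 and 43.7 TPM against 48.8 and 52.0 TPM in *rev-5*, and at 37.6 and 37.0 TPM against 54.1 and 51.6 TPM in the libraries labelled *wox4*. All WL+FR libraries were above all WL libraries, and the mean difference was 0.43 ± 0.04 (adjusted p = 3.74e-05, limma). *BES1* (AT1G19350) ranged from 203 to 221 TPM in WL, with a median of 212 TPM, and from 228 to 268 TPM in WL+FR, with a median of 258 TPM. Its mean difference was the smallest of the genes that rose, 0.25 ± 0.04 (adjusted p = 4.06e-04, limma), and 0.16 after quantile normalization. The exons of *BES1* share 818 bases with those of *RRA3* (AT1G19360) on the opposite strand, which stood at 29.6 to 40.0 TPM, and since strand use in counting is not given in the sources used here, reads of the 2 genes cannot be told apart there.

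Within Col-0, 8 of the 10 genes rose against 13.3% of all genes tested, and *DWF4* and *BR6OX1* did not pass. In *rev-5*, 7 rose against 11%, and *DWF4*, *BR6OX1* and *SOB7* did not pass. After quantile normalization 2 of these 7, *CPD* and *BAS1*, were still called in *rev-5*, against 5.3% of all genes. In the libraries labelled *wox4*, 6 rose against 15.4%, and *DWF4*, *BR6OX1*, *CYP90D1* and *SOB7* did not pass. These counts do not show that the genotypes differed. The test of the difference itself called none of the 10 genes for *rev-5* against Col-0, where 0.395% of all genes were called, and none for the libraries labelled *wox4* against Col-0, where 0.105% were called (limma). At an unadjusted p under 0.05 these counts were 0 and 1, beside 9.19% and 6.93% of all genes tested. The 1 gene was *CPD*, whose light difference was larger by 0.33 ± 0.06 in the libraries labelled *wox4* than in Col-0 (adjusted p = 0.22, limma). The 95% intervals of the other differences varied in width. In the libraries labelled *wox4* they ran from -1.16 to 0.23 for *BR6OX1* and from -0.17 to 0.70 for *BR6OX2*, but from -0.13 to 0.25 for *BES1*. The count in *rev-5* fell from 7 to 2 when *rev-5* WL replicate 9 or *rev-5* WL+FR replicate 11 or 12 was left out, and to 3 without *rev-5* WL replicate 10.

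*CPD* was also the single gene of the 10 that differed between a mutant and Col-0. In WL it was higher in *rev-5* by 0.31 ± 0.04 (adjusted p = 0.00424, limma), where 2.61% of all genes were higher. In WL+FR it was higher in *rev-5* by 0.43 ± 0.04 (adjusted p = 9.86e-04), where 1.77% were higher, and in the libraries labelled *wox4* by 0.47 ± 0.04 (adjusted p = 0.00242), where 0.634% were higher. The mutant and Col-0 libraries did not overlap in any of these comparisons, which adds little to the calls with 2 libraries on each side. In the libraries labelled *wox4* in WL none of the 10 genes was called, against 0.165% of all genes, and 2 had an unadjusted p under 0.05, beside 9.26% of all genes, *CPD* at 0.15 ± 0.04 and *CYP90D1* at 0.37 ± 0.15. In *rev-5* in WL all 10 genes had a value above 0, with a median of 0.20 beside 0 for all genes tested, while the other 9 did not pass. The 10 values rest on the same 2 libraries on each side and are not independent of each other. The 4 mutant comparisons use the same Col-0 libraries within each light and are not independent of each other.

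The higher *CPD* values coincided with a change in the listing of a neighbouring gene. *CPD* (chromosome 5, 1702640 to 1706948) shares 20 exon bases with AT5G05680 on the opposite strand. AT5G05680 stood at 11.03 and 9.58 TPM in Col-0 in WL, at 12.5 and 11.96 TPM in Col-0 in WL+FR and at 10.7 and 10.5 TPM in the libraries labelled *wox4* in WL, and it was listed at 0 in the other 6 libraries. Those 6 are the mutant libraries of the 3 comparisons in which *CPD* was called. When the FPKM of AT5G05680 times its exon length was added to *CPD*, an alternative chosen after seeing the data, *CPD* stood at 123 and 121 TPM in Col-0 in WL and at 135 and 132 TPM in *rev-5*. The difference was then 0.13 ± 0.04 with an adjusted p of 0.134 (limma), and the call in WL was lost. In WL+FR *CPD* remained higher with AT5G05680 added, by 0.26 ± 0.04 in *rev-5* (adjusted p = 0.0124) and by 0.30 ± 0.04 in the libraries labelled *wox4* (adjusted p = 0.0187). The larger light difference of *CPD* in the libraries labelled *wox4* was 0.16 ± 0.06 on this scale, and the light differences themselves were 0.29 for Col-0, 0.42 for *rev-5* and 0.45 for the libraries labelled *wox4*, each called. How the reads of the locus were divided between the 2 genes was not tested.

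*BZR1* had a neighbour of the same kind. AT1G75090, which shares 282 exon bases with *BZR1* on the opposite strand, stood at 6.28 to 7.89 TPM in the WL libraries of Col-0 and of the label *wox4* and was listed at 0 in the other 8 libraries, all 6 in WL+FR among them. With AT1G75090 added in the same way, *BZR1* rose by 0.31 ± 0.04 in WL+FR (adjusted p = 2.53e-04, limma) in place of 0.43, and it was called in each genotype. In *rev-5*, where AT1G75090 was listed at 0 in both lights, the *BZR1* difference was 0.29 ± 0.07. Further opposite-strand genes share 687 exon bases with *SOB7*, 83 with *ROT3* and 220 with *BZR1*. They were listed at 0 in all 12 libraries, and how the reads there were divided was not tested.

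**Figure D3:**
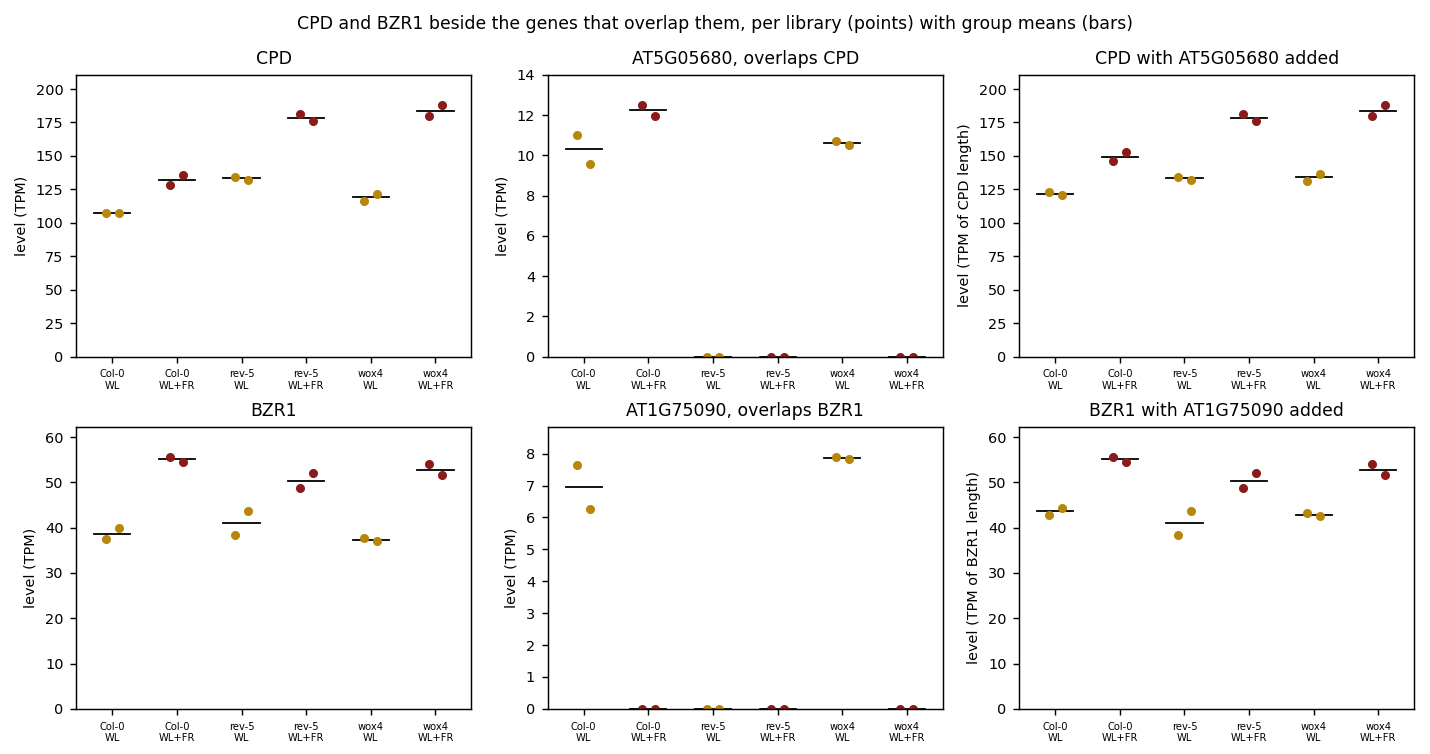
Levels of *CPD* and *BZR1* (left), of the genes that overlap them (middle) and of the sum of both, scaled to the length of *CPD* or *BZR1* (right), in TPM from 0, with 1 point per library and a bar at the group mean. AT5G05680 is listed at 0 in the 6 libraries of *rev-5* and of the label *wox4* in WL+FR, and AT1G75090 is listed at 0 in 8 libraries.

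Most genes for the other steps of synthesis did not pass the test in the mean light response, and neither did most genes tested. There 35.3% of all genes tested were called, as 28.1% rose and 7.19% fell. Of 11 other genes of sterol and brassinosteroid synthesis, 2 fell, *DWF1*, a sterol side chain reductase, by 0.16 ± 0.02 (adjusted p = 5.86e-05, limma) and *SMT3*, a sterol methyltransferase, by 0.29 ± 0.03 (adjusted p = 5.95e-05). *DET2*, a steroid reductase, was the 1 gene called higher, but it was listed at 0 in 8 libraries and at 52.6 TPM in 1 Col-0 library, 45.2 TPM in 1 *rev-5* library and 61.5 and 39.6 TPM in the libraries labelled *wox4*, all in WL+FR. The median over the other 10 genes was 0.02, beside 0.11 for all genes tested, and after quantile normalization *SMT2*, a further methyltransferase, fell as well, by 0.16. *DWF1* was also lower in *rev-5* than in Col-0, with a difference of -0.27 ± 0.03 in WL (adjusted p = 0.001, limma), where 2.06% of all genes were lower. In WL+FR its difference was -0.14 ± 0.03 (adjusted p = 0.039), where 1.76% were lower.

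Of 5 other inactivating enzymes, 4 rose, against 28.1% of all genes tested. *BAT1*, an acyltransferase, rose by 0.63 ± 0.04 (adjusted p = 1.7e-06, limma), *BEN1*, a reductase-like enzyme, by 0.41 ± 0.07, the acyltransferase *BIA1* by 0.35 ± 0.07 and the glucosyltransferase *UGT73C5* by 0.31 ± 0.07, while *UGT73C6* was listed at 0 in 6 libraries and did not pass. The list summed to 101 to 119 TPM in WL and 149.7 to 165 TPM in WL+FR without overlap. After quantile normalization *BIA1* and *UGT73C5* missed the threshold, with adjusted p of 0.0599 and 0.107. *BAT1* was higher in *rev-5* than in Col-0 in WL, by 0.30 ± 0.07 (adjusted p = 0.0329, limma), where 2.61% of all genes were higher.

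Of 6 receptors and co-receptors, 4 rose, against 28.1% of all genes tested. The receptor *BRI1* rose by 0.46 ± 0.04 (adjusted p = 1.02e-05, limma) and its relatives *BRL1* and *BRL3* by 0.47 ± 0.09 and 0.31 ± 0.08. The fourth, the co-receptor *BAK1*, was higher by 0.12 ± 0.04 and stood at -0.02 after quantile normalization, where *BRL3* also missed the threshold. Of 10 tested relay genes, 2 rose, against 28.1% of all genes tested, and so small a count does not set the relay genes apart. They were the receptor inhibitor *BKI1*, by 0.30 ± 0.04 (adjusted p = 3.77e-04, limma), and the kinase *BIN2*, by 0.18 ± 0.03 (adjusted p = 0.00136). After quantile normalization *BIN2* stood at 0.05 and was not called, while the kinase gene *BSK2* fell by 0.38. *CDG1* was listed at 0 in all libraries and *BSU1* in 10. The relay median of 0.13 lay next to that of all genes, whereas the receptor median was 0.25.

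Among the 4 other genes of the BZR family 3 rose, against 28.1% of all genes tested. They were *BEH1*, by 0.64 ± 0.04 (adjusted p = 2.11e-06, limma), *BEH3*, by 0.28 ± 0.07, and *BEH2*, by 0.23 ± 0.03. After quantile normalization *BEH3* and *BEH2* missed the threshold. Of 12 tested bHLH and MYB partners and targets 9 rose, against the same 28.1%, with a median of 0.49. *IBH1*, an inhibitor of growth-promoting bHLH factors, rose by 1.44 ± 0.04 (adjusted p = 1.34e-08), *PRE5*, of a family that antagonises IBH1, by 1.41 ± 0.19 at levels of at most 5.39 TPM, and the bHLH factor *BEE1* by 1.13 ± 0.12. Of 6 growth genes known to be raised by brassinosteroid 5 rose and 1 fell, against 28.1% and 7.19% of all genes, with a median of 1.1. *IAA19* and *IAA2*, which also respond to auxin, rose by 1.56 ± 0.06 and 1.38 ± 0.04 and the expansin gene *EXPA8* by 1.25 ± 0.03, whereas *TCH4*, a wall-modifying enzyme gene, fell by 0.50 ± 0.06 (adjusted p = 1.32e-04). In WL+FR the growth gene *XTH24*, which encodes a wall-modifying enzyme, was lower in *rev-5* than in Col-0, at 149.0 and 151 TPM against 203 and 187 TPM. The difference was -0.38 ± 0.05 (adjusted p = 0.00277, limma), where 1.76% of all genes were lower. The other 5 growth genes did not pass there, none of the 6 had a value above 0, and their median was -0.27 beside 0.02 for all genes tested. These values share the same libraries and are not independent of each other. No gene of these pathway lists was called in a difference of light responses between a mutant and Col-0.

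**Figure D4:**
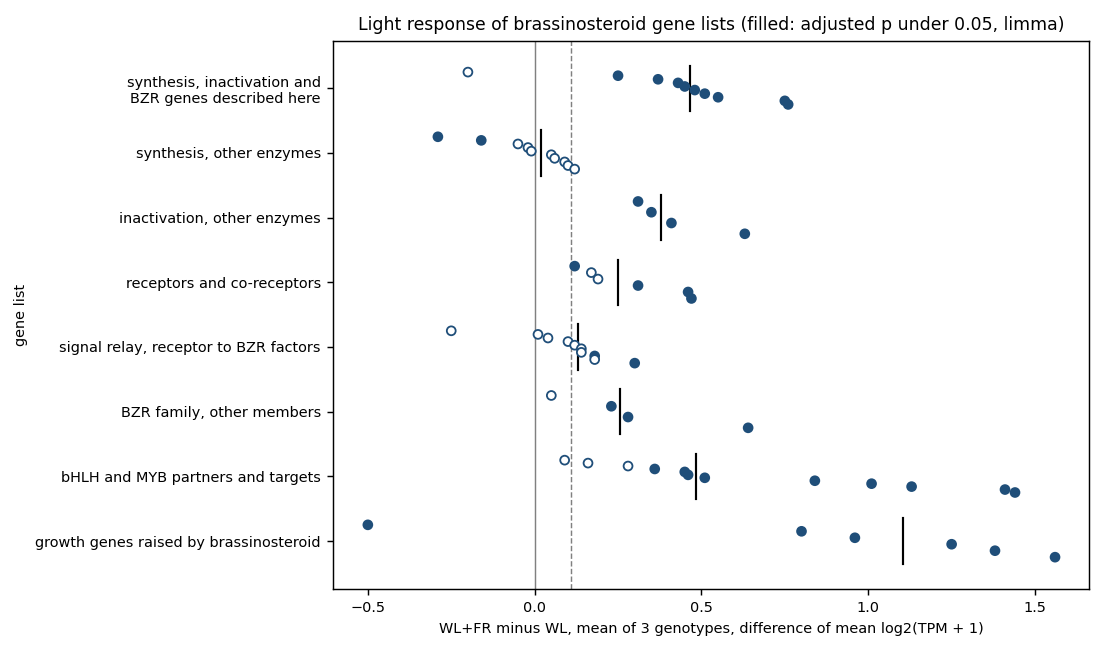
Difference between WL+FR and WL averaged over 3 genotypes (horizontal axis, log2(TPM + 1) scale) for each gene of 8 lists (vertical axis), filled where the adjusted p was under 0.05, with a black bar at the list median and a dashed line at the median of all genes tested, 0.11. *DET2* and *UGT73C6*, listed at 0 in 8 and 6 libraries, are left out. The list medians run from 0.02 for the other synthesis enzymes to 1.1 for the growth genes.

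Markers of tissues differed between the lights and, in part, between genotypes. Their counts in the mean light response stand beside 28.1% of all genes tested that rose and 7.19% that fell. Xylem markers summed to 83.8 to 126 TPM in WL and 148 to 169 TPM in WL+FR, and all 4 that were tested rose, while *CESA4* was listed at 0 in all libraries. Root markers summed to 617 to 820 TPM in WL and 857 to 995 TPM in WL+FR, with 4 of 6 higher, and phloem markers to 135 to 165 TPM and 176 to 210 TPM, with *SUC2* the 1 of 3 that rose. Of 4 green shoot markers 2 rose and 2 fell in the mean light response, and the list sums of the lights overlapped, while *RBCS1A*, which fell by 0.12, stood at 0.23 after quantile normalization. *CAB2* (*LHCB1.1*), a light-harvesting gene with near-identical copies and therefore uncertain, was called in both differences of light responses, at -0.44 ± 0.04 for *rev-5* minus Col-0 (adjusted p = 8.26e-04, limma) and -0.30 ± 0.04 for the libraries labelled *wox4* minus Col-0 (adjusted p = 0.0168). In *rev-5* in WL, where *CPD* was called, *CAB2*, the Rubisco activase gene *RCA* and the root marker *PYK10* were higher than in Col-0, by 0.26 ± 0.03, 0.36 ± 0.03 and 0.38 ± 0.06. Of 6 root markers 1 was called higher there and 4 had a value above 0, against 2.61% of all genes called higher. Of 4 green shoot markers 2 were called higher and 4 had a value above 0. In WL+FR *CAB2* was lower and *RCA* higher than in Col-0, both in *rev-5* and in the libraries labelled *wox4*. The xylem marker *XCP1* was in addition higher by 0.62 ± 0.10 in *rev-5* and in the libraries labelled *wox4* than in Col-0 in WL. It overlaps AT4G35360, a gene listed at 0 in some libraries and at no more than 2.9 TPM in the rest. In each of these 2 comparisons 1 of 4 tested xylem markers was called, against 2.61% and 0.165% of all genes called higher. Values above 0 were held by 2 of the 4 in *rev-5* and by 3 in the libraries labelled *wox4*. The part of these tissues in the values of the brassinosteroid genes was not tested, and in whole seedlings a change in the number of cells of a type cannot be told apart from a change in RNA per cell.

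The genes with the most similar profiles were sought for each of the 9 genes that rose, among 18788 genes above 0 in all 12 libraries, by the root mean square difference of centred log2 values. *CPD* was nearest to AT3G46690 and to *BSK6*, with 0.0654 and 0.0677. *BAS1* was nearest to AT5G66390 and the wall enzyme gene *XTH32*, with 0.0831 and 0.0841, and *BR6OX2* to *APS4* and AT3G16800, with 0.109 and 0.110. *BZR1* was nearest to *FQR1* and *SVL1*, with 0.0504 and 0.0571, and *BES1* to *NPC3* and *CIPK12*, with 0.0424 and 0.0494. *ROT3* was nearest to *PMEPCRF* and AT2G26690, *CYP90D1* to *PGIP1* and AT2G46600, *SOB7* to AT3G25610 and *HIPP25*, and *BR6OX1* to *CYP705A30* and *NPY2*, with values of 0.0622 to 0.13. Among the 10 genes themselves the nearest profile to *BZR1* was that of *SOB7*, with 0.102. These values describe 12 libraries that share the light contrast, and a small difference is reached more easily by genes that vary little.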

How the data were processed

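Total RNA of whole seedlings was sequenced by the authors in 12 TruSeq libraries. The deposited tables of the authors hold 1 FPKM value and its bounds for every TAIR10 gene. The paper names HISAT2 and the labels name Bowtie2 and Cufflinks, and which aligner made these values is not given in the sources used here. Read counts were not used here, so the main test differs from one on counts.

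TPM was obtained by dividing each FPKM by its library's total, after 2 repeated identifiers were summed. Genes averaging 0.5 TPM or more entered a limma 3.58.1 fit (R 4.3.3) of log2(TPM + 1), with 6 group means and a trended eBayes. P-values rest on 2 libraries per group. Fold differences of low genes are understated on this scale. The fit was tested on simulated data. Promoters came from TAIR10.1, where 32520 of 32824 genes had the same position. Python 3.11.15, pandas 2.3.3 and matplotlib 3.10.9 were used. The members and lists were chosen with earlier results of these data known. Named genes were all 10 members, up to 3 genes per list with the largest called difference in the mean light response, pathway genes called in a difference of light responses, and the 2 nearest profiles. *DET2*, *UGT73C5*, *UGT73C6*, *BAK1*, *BSU1*, *BSK2*, *SMT2*, *CDG1*, *TCH4*, *RRA3*, AT5G05680, AT1G75090 and the list genes named in mutant comparisons or as markers were named after their values were seen. Alternatives were another pseudocount, filters, FPKM, quantile normalization, no trend, the study's stricter threshold and leaving out libraries.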

Additional observations from a re-analysis of the deposited data

How the results depend on the processing

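No paired analysis was possible because the replicate numbers run from 1 to 12 and no number is shared between groups. The 33 called differences of the 10 genes and the mean light difference of *DWF4* gave 707 values under the alternatives, of which 0 changed direction. Many of the 707 could not do so. The filters, the fit without a trend and the stricter threshold leave the difference itself unchanged, as does leaving out libraries outside the comparison. Among values that were not called, *BZR1* in *rev-5* minus Col-0 in WL went from 0.08 to -0.09 with AT1G75090 added. At the stricter threshold, an absolute log2 difference over 1 with an adjusted p under 0.01, the count of the 10 genes called was 1 in the libraries labelled *wox4* (*BR6OX2*) and 0 for every other comparison. Quantile normalization left 2 genes called in the light response of *rev-5*. Without a trend in the spread 0 genes were called for the libraries labelled *wox4* against Col-0 in WL+FR, and with the overlapping genes added 0 were called for *rev-5* against Col-0 in WL. When each library was left out in turn, the count for the mean light response stayed at 9. The Col-0 count ranged from 6 to 9, the *rev-5* count from 2 to 7 and the count for the libraries labelled *wox4* from 5 to 6, and the counts of the other 6 comparisons did not move. *BES1* in Col-0 missed the threshold without Col-0 WL replicate 1 or 2, Col-0 WL+FR replicate 4 or any one *rev-5* library, with adjusted p from 0.0565 to 0.207 (limma). The pseudocount and the filters changed no call.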
